A study of Mus musculus with 24 samples.

Results

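Chromatin accessibility was examined around 10 cytokine genes in mouse macrophages: Il6, Lif and Osm of the IL-6 family, Il12a, Il12b, Il23a, Il27 and Ebi3 of the IL-12 family, and Il10 and Il19 of the IL-10 family. A consensus peak, that is a region of open chromatin merged over all libraries, was included if it overlapped the body of one of these genes or lay within 20 kb of it, and each peak was given to the nearest of the 10. This rule used position alone and gave 92 of the 184158 consensus peaks on mm10: 10 each for Il6, Lif, Osm and Il12a, 11 for Il12b, 5 for Il23a, 8 for Il27, 9 for Ebi3, 17 for Il10 and 2 for Il19. All 92 passed the filter on low counts. A consensus peak can rest on calls in a single group, and a higher level in that group is then no independent finding. The peaks were 138 to 3727 bases long, and 9 of them lay in the windows of 2 members, in which case the nearer gene was used. For 22 of the 92 peaks the nearest gene body was not the member itself but another gene, such as Yju2 beside Ebi3, Castor1 beside Osm or Stat2 beside Il23a.

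Cytokines of the IL-6 family signal through a shared receptor chain, gp130 (Il6st), and act on acute inflammation and tissue repair. Cytokines of the IL-12 family are made of paired chains: IL-12 is built from the products of Il12a and Il12b, IL-23 from those of Il23a and Il12b, and IL-27 from those of Il27 and Ebi3. IL-10 restrains macrophage activation through the factor STAT3, and IL-19 belongs to the same structural family. Macrophages that sense lipopolysaccharide (LPS) through TLR4 are a main source of several of these cytokines, and NF-kB, AP-1 and C/EBP factors are known to bind their control regions. The aryl hydrocarbon receptor (AhR) is a transcription factor switched on by small ligands, which binds DNA with its partner ARNT at sites with a GCGTG core.

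The libraries came from bone marrow-derived macrophages (BMDMs) of 2 genotypes, each left unstimulated or given LPS, with 6 libraries in each of the 4 groups and 24 in all. WT marrow was C57BL/6J per the study's methods, and AhR-KO marrow came from B6.129 mice with a disrupted Ahr gene in every cell of the body. In these mice DNA of 129 origin can remain around Ahr on chromosome 12, where 0 of the 92 peaks lay. All cultures were started with GM-CSF at 10 ng/ml, TGF-β at 2 ng/ml and 10% serum, a mixture the study used to obtain alveolar-like macrophages. Per the study's methods, part of the medium was exchanged before LPS for medium with higher doses of both factors. LPS was added on day 6 at 97 EU/ml for 24 h and was followed by 5 µM of the calcium ionophore A23187 for 10 min. The labels give this treatment text with every library, unstimulated ones included, and state no age. The labels tie no library to an animal, while the study's legend gives 6 animals per group and a single experiment. Neither says whether unstimulated and LPS cultures shared animals, and libraries were not treated as pairs. The p-values therefore measure the spread between libraries of that experiment. In bulk libraries a smaller share of open cells and less access per cell cannot be told apart.

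Counts in peaks ran from 8536838 to 34598345 per library. Levels below are CPM, a peak's counts per 1000000 counts in all peaks of the library after TMM scaling, a correction for library composition. A level is given as the lowest, median and highest of 6 libraries. A peak was called a differentially accessible region (DAR), or said to rise or fall, where edgeR's quasi-likelihood test gave an adjusted p of at most 0.05 over all 174193 tested peaks and the fold change was at least 1.5. The peak over the start of Ahr itself separated the labelled genotypes: the 12 WT libraries lay between 19 and 24.6 CPM and the 12 AhR-KO libraries between 11.5 and 16.8. It was not shown that this peak lies in the disrupted part of the gene. Of 10 macrophage markers, all had a peak at or near their start, whereas 0 of 4 T cell markers did. The summed level of the macrophage marker peaks was 187 to 204 CPM in unstimulated WT, 223 to 283 in unstimulated AhR-KO, 156 to 177 in WT with LPS and 156 to 209 in AhR-KO with LPS. The B cell list had peaks near 2 of its 3 genes and over the start of 0, and these summed to 0.814 to 2.43 CPM in unstimulated libraries and 2.96 to 5.38 with LPS. Peaks lay near 1 of 4 neutrophil, 2 of 3 epithelial and 2 of 2 fibroblast markers. The neutrophil peak, at S100a8, lay at 17.7 to 22.1 CPM in unstimulated WT, 22.7 to 26.9 in unstimulated AhR-KO, 13 to 19.8 in WT with LPS and 16.1 to 18.2 in AhR-KO with LPS. In the same order of groups, the epithelial peaks summed to 11.1 to 17.3, 10.5 to 12.1, 10.2 to 11.6 and 8.14 to 11.8 CPM, and the fibroblast peaks to 8.63 to 11.1, 7.81 to 9.39, 8.42 to 9.65 and 7.66 to 10.3 CPM. How far these marker levels take part in the cytokine results was not tested.

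Sequences of the regions on which the results turn are shown here, read from GRCm38 (the assembly behind mm10) on the plus strand, which is the coding strand of Il6, Il10 and Lif. Letters of the searched motifs are in capitals: NF-kB (GGGNNTTTC or GGGAANNNC), AP-1 (TGANTCA), C/EBP (TTGCNNAA), PU.1 (GAGGAAGT), IRF (GAAANNGAA), STAT (TTCNNNGAA) and the AhR core (GCGTG), each on both strands. The first is the 250 bases upstream of the Il6 start, chr5:30012864-30013113, part of a peak that rose with LPS in WT and was more open in AhR-KO before stimulation.
Il6 promoter: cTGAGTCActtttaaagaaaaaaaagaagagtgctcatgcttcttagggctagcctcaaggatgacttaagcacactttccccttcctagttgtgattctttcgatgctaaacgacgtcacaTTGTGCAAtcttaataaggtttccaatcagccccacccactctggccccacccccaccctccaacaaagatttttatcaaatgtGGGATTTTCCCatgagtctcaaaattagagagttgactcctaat
The second is 300 bases of an intergenic peak upstream of Il10, chr1:131000919-131001218, which was nearly closed without LPS and rose in both genotypes.
Il10 upstream peak: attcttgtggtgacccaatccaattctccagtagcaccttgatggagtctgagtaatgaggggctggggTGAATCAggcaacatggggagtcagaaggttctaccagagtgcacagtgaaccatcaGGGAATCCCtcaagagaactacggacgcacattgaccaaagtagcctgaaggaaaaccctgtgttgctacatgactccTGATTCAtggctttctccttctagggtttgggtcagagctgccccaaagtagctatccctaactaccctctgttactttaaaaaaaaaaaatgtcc
The third is 300 bases of an intergenic peak upstream of Il6, chr5:29999434-29999733, where the level with LPS was lower in AhR-KO.
Il6 upstream peak: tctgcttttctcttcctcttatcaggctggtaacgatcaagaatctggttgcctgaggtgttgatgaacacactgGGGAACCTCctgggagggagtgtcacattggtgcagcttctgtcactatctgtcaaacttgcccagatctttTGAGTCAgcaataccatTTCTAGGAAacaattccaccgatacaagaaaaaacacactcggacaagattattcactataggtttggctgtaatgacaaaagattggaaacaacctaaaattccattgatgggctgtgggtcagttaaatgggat
The fourth is 300 bases of an intronic Lif peak, chr11:4268565-4268864, which was lower in AhR-KO with and without LPS.
Lif intronic peak: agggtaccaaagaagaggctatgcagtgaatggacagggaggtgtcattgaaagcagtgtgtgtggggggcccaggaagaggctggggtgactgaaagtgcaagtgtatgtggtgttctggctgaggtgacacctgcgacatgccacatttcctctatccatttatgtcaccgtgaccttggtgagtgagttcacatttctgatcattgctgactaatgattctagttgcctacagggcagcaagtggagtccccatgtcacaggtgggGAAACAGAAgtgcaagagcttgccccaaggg
The Il6 promoter held overlapping NF-kB matches, 1 AP-1 match and 1 C/EBP match. The Il10 upstream peak held 1 NF-kB and 2 AP-1 matches, the Il6 upstream peak 1 NF-kB, 1 AP-1 and 1 STAT match, and the Lif intronic peak 1 IRF match. None of these windows held the letters of the AhR core, which says nothing of binding by AhR.

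The first question was which cytokine regions responded to LPS in WT and in AhR-KO BMDMs. In WT, 44 of the 92 peaks rose, which is 47.8%, against 25.4% of all tested peaks, and 11 fell, which is 12% against 21.6%. In AhR-KO, 46 rose, which is 50% against 27.3%, and 8 fell, which is 8.70% against 21.5%. The median log2 change over the 92 peaks was 0.48 in WT and 0.59 in AhR-KO, beside -0.01 and 0.05 over all tested peaks. In both genotypes 38 peaks rose, which is 41.3% against 20.9% of all tested peaks, and 7 fell, which is 7.61% against 15.7%. Another 2 peaks, or 2.17% against 0.192%, were called in opposite directions, and both lost a call when single libraries were left out, as given below. In WT the rises made up 8 of 10 peaks at Il6, 7 of 10 at Il12a, 10 of 17 at Il10 and 5 of 8 at Il27, but 2 of 10 at Osm and 3 of 10 at Lif, where another 3 fell. Of the Il10 rises, the one 23.1 kb from the start was no DAR without WT LPS library 3 or 5 or unstimulated WT library 1, 2 or 4 (0.45 to 0.58), and the one 8.4 kb upstream without WT LPS library 5 or unstimulated WT library 2, 4 or 5 (0.83 to 1.06).

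**Figure D1:**
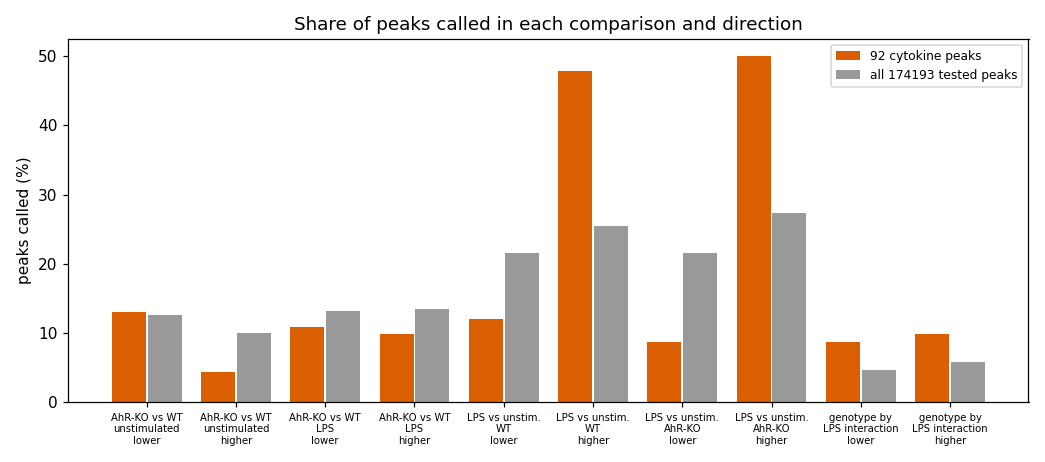
Share of peaks called in each comparison and direction, in percent, for the 92 cytokine peaks (orange) and all 174193 tested peaks (grey). The largest gap between the bars is for peaks higher with LPS, 47.8% against 25.4% in WT and 50% against 27.3% in AhR-KO.

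Il6 encodes the fever and acute phase cytokine of its family. Its TSS peak (chr5:30012704-30013734, over the start) lay at 7.13, 7.98 and 8.05 CPM in unstimulated WT and at 14.8, 18 and 19.2 with LPS. All 6 LPS libraries were above all 6 unstimulated ones (log2 change 1.17 ± 0.08 SE, edgeR adjusted p = 1.5e-14). In AhR-KO the peak started higher, at 11.5, 12 and 13.5 CPM, and reached 15, 17.2 and 22.2 with LPS. That step had an adjusted p of 3.6e-07 in edgeR but, at 0.53 ± 0.08, was under the 1.5-fold minimum.
Downstream of the gene the changes were larger. A broad intergenic peak 9.2 kb from the start (chr5:30020419-30024145, 3727 bases) rose in WT from 0.662, 0.85 and 0.874 CPM to 10.5, 12.6 and 15.6. In AhR-KO it rose from 0.410, 0.797 and 0.932 CPM to 21.2, 27.1 and 33.8. The log2 changes were 3.96 ± 0.16 and 5.24 ± 0.15. MACS2, the authors' peak caller, called a peak here in all 12 LPS libraries and in 0 of 12 unstimulated ones. These calls put the peak in the consensus, so their number adds no support to the rise. LPS libraries also tended to be deeper, with 22365774 to 34598345 counts against 8536838 to 25728944 in unstimulated ones. The peak over an Il6 exon with UTR, 5.7 kb from the start, had a log2 rise of 3.62 ± 0.21 for WT and 3.71 ± 0.17 for AhR-KO.

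Lif and Osm, which act on many tissues through gp130 with their own partner receptors, were not DARs with LPS at their starts. The Osm TSS peak lay at 28.7, 29.7 and 34.5 CPM in unstimulated WT and 26.5, 31.2 and 33.6 with LPS, and the Lif TSS peak at 8.42, 9.61 and 10.2 against 7.24, 8.75 and 10.3. In both genotypes the groups overlapped. The clearest change at Lif was a fall upstream of it. The peak 6.5 kb upstream of Lif (chr11:4250281-4251902) went from 21.9, 26 and 28.7 CPM to 8.36, 9.27 and 9.85 in WT, a log2 change of -1.49 ± 0.10 (edgeR adjusted p = 2.4e-15). In AhR-KO it went from 29.8, 38.3 and 46.8 CPM to 5.78, 6.34 and 8.80, a log2 change of -2.46 ± 0.10. Its neighbour 8.1 kb upstream fell with it, by 1.35 for WT and by 1.80 for AhR-KO. At Osm a peak 6.4 kb upstream rose by 1.03 ± 0.10 and 1.40 ± 0.10, while the next one, 3.6 kb upstream, changed by 0.45 and 0.52 and was under the fold minimum in both.

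In the IL-12 family the start regions of Il12a, Il23a and Il27 rose with LPS in WT, and those of Il12b and Ebi3 were not DARs there. The peak inside Il12a (chr3:68691016-68694150), which begins 372 bases after the annotated start, rose in WT from 9.90, 10.8 and 11.3 CPM to 31.8, 35.3 and 37.7, a log2 change of 1.70 ± 0.07 (edgeR adjusted p = 5.8e-22). In AhR-KO it rose from 8.54, 9.01 and 9.95 CPM to 33.6, 38.8 and 43.7, by 2.07 ± 0.07. The Il12b TSS peak (chr11:44398665-44400200), in contrast, lay at 18, 22 and 23.3 CPM in unstimulated WT and at 18, 21.2 and 21.7 with LPS. With log2 changes of -0.07 ± 0.07 in WT and 0.25 ± 0.07 in AhR-KO it was no DAR with LPS. Around Il12b the rises lay elsewhere: the peak 9.9 kb upstream rose by 1.36 ± 0.08 and 1.52 ± 0.08, and a short intronic peak 1.9 kb from the start rose by 2.13 ± 0.23 and 2.58 ± 0.23. Il12a also gained distal peaks, of which the one 6.8 kb upstream rose by 3.56 ± 0.22 in WT and the one 9.2 kb downstream by 2.43 ± 0.18.

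Il23a, the chain specific to IL-23, rose modestly at its start. Its TSS peak went from 10.6, 11.9 and 13.1 CPM to 18.2, 19.2 and 20.6 in WT, a log2 change of 0.68 ± 0.08, and its change of 0.39 ± 0.08 in AhR-KO was under the fold minimum. Its most changed distal peak lay in an intron of Stat2, 11.5 kb from the Il23a start, and fell in both genotypes, by 1.60 in WT and 2.63 in AhR-KO. Il27 and Ebi3 encode the chains of IL-27. The Il27 TSS peak rose from 5.12, 7.08 and 7.76 CPM to 11.7, 12.1 and 12.6 in WT, by 0.82 ± 0.09, and by 1.2 ± 0.09 in AhR-KO. Upstream of Il27 the peak at 4.3 kb rose by 1.74 ± 0.14 and 2.34 ± 0.14, and the one at 8.1 kb by 1.09 ± 0.09 and 0.91 ± 0.08. The Ebi3 TSS peak changed by 0.43 ± 0.07 in WT, under the fold minimum, and rose by 0.69 ± 0.07 in AhR-KO. The largest rise given to Ebi3 lay in an intron of its neighbour Yju2, 8.8 kb from the Ebi3 start, with 2.40 ± 0.17 in WT and 3.19 ± 0.16 in AhR-KO.

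The largest LPS response of all 92 peaks in WT was upstream of Il10. The peak shown above, 18.8 kb upstream (chr1:131000906-131001232), held 0.0436, 0.0912 and 0.322 CPM in unstimulated WT, or 14 counts over the 6 libraries, and 3.65, 4.42 and 6.52 CPM with LPS, or 864 counts. In AhR-KO it held 0, 0.105 and 0.220 CPM, or 15 counts, and 3.26, 4.30 and 4.92 CPM, or 624 counts. The log2 change was 5.15 ± 0.29 in WT and 5.15 ± 0.28 in AhR-KO, and it rests on very few counts on the unstimulated side. MACS2 called a peak here in 0 of 12 unstimulated and all 12 LPS libraries. These calls put the peak in the consensus and add no support to the rise. The next peak, 17.1 kb upstream, rose too, by 4.38 ± 0.23 and 4.83 ± 0.23, and those 20.4 and 14 kb upstream, chosen after their values were seen, had rises of 2.17 and 2.49 for WT, and of 2.63 and 2.81 for AhR-KO. The peak nearest to the start, which ends 853 bases upstream of it, did not rise and lay at 1.28, 1.67 and 2.27 CPM in unstimulated WT and at 0.746, 1.2 and 1.26 with LPS. It fell by 0.61 ± 0.16 in WT, a call lost without WT LPS library 5 (-0.53) or without unstimulated WT library 2 (-0.51), 4 (-0.58) or 6 (-0.56), and its change of -0.15 ± 0.17 in AhR-KO was no DAR. Il19, a neighbour of Il10 on chromosome 1, had 2 peaks and none at its start. The one 12.6 kb upstream rose by 1.97 ± 0.24 in WT and 1.51 ± 0.23 in AhR-KO, from 0.644, 0.792 and 1.16 CPM to 2.12, 2.54 and 5.43 in WT.

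**Figure D2:**
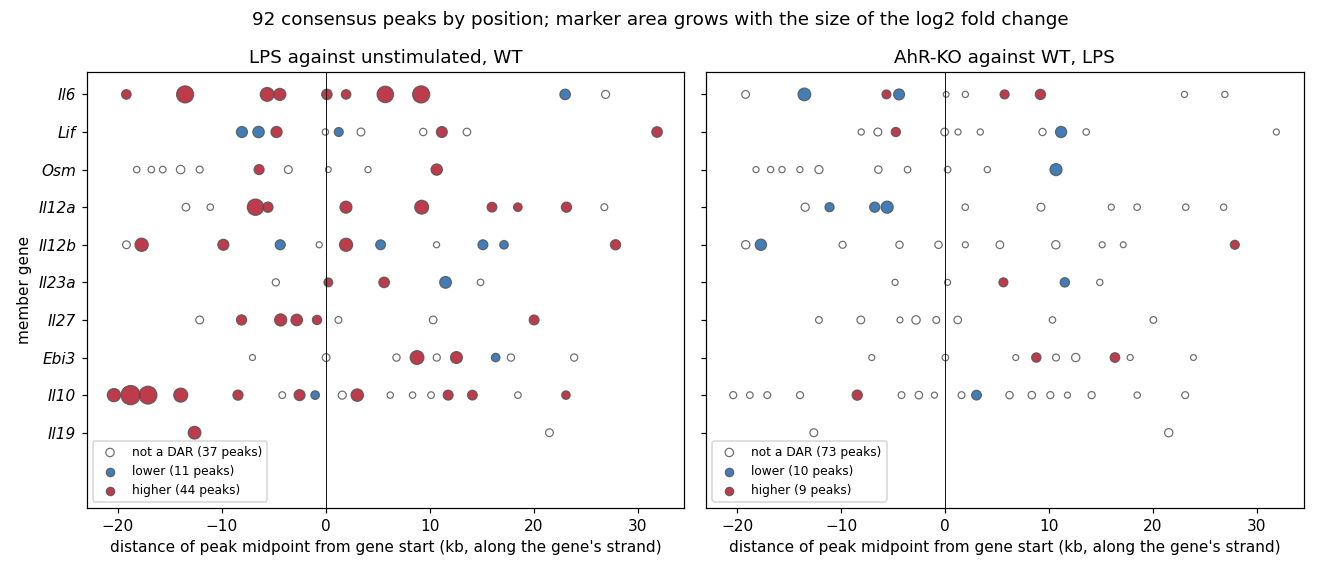
Position of the 92 peaks along each member gene, as the distance of the peak's midpoint from the gene start in kb, for LPS against unstimulated in WT (left) and AhR-KO against WT with LPS (right). Red marks higher DARs, blue lower DARs and open circles peaks that were not called, and the area of a marker grows with the size of the log2 change. On the left 44 peaks are red and 11 blue, with the largest circles upstream of Il10, and on the right 9 are red and 10 blue.

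The second question was whether AhR-KO BMDMs differed from WT before stimulation. Here 12 of the 92 peaks were lower in AhR-KO, which is 13% against 12.6% of all tested peaks, and 4 were higher, which is 4.35% against 9.95%. The split depended on the scaling, over all peaks as well. With RLE size factors 8 were lower, or 8.70% against 11.1%, and 9 higher, or 9.78% against 11.9%. With DESeq2 9 were lower, or 9.78% against 11%, and 8 higher, or 8.70% against 11.7%. The share lower was near or under that of all peaks in each, so the count does not set the cytokine peaks apart. Macrophage marker peaks moved in the same comparison, with 2 of 10 higher in AhR-KO, against 9.95% of all tested peaks. These were Itgax, with no overlap, and Marco, where the groups overlapped. The summed ranges given above did not overlap. The S100a8 peak was higher too, with no overlap (log2 difference 0.25, edgeR adjusted p = 0.0085), and the Epcam peak was lower (-0.47, edgeR adjusted p = 0.00025), both under the fold minimum. Their part in these results was not tested.

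The Il6 TSS peak was higher in AhR-KO, at 11.5, 12 and 13.5 CPM against 7.13, 7.98 and 8.05 in WT, with no overlap (log2 difference 0.64 ± 0.09, edgeR adjusted p = 2.5e-07). The Il12b TSS peak was lower, at 13.1, 13.4 and 15 CPM against 18, 22 and 23.3, again with no overlap (-0.64 ± 0.07, edgeR adjusted p = 5.7e-09). With RLE size factors and with DESeq2 this last difference was -0.58, under the fold minimum. The other 7 TSS peaks were under the fold minimum, with log2 differences from -0.41 at Il10 to 0.35 at Il23a.
Of the distal peaks that were lower in AhR-KO, 3 lay at Il12b, 3 at Il12a, 3 at Il10, 1 at Il27 and 1 at Lif. Some of these calls rested on single libraries. The Il27 peak 4.3 kb upstream was no DAR without unstimulated AhR-KO library 3 or unstimulated WT library 3 or 5 (-0.56 to -0.53), the Il12b peak 10.6 kb from the start without unstimulated AhR-KO library 2 (-0.53), the Il12a peak 13.5 kb upstream without unstimulated WT library 1 (-0.58), and a further Il12a peak is given below. Of the 4 higher peaks, the one 8.1 kb upstream of Il27 was no DAR without unstimulated AhR-KO library 1 or 2 or unstimulated WT library 4 or 5 (0.55 to 0.57), and the one 4.7 kb upstream of Lif without unstimulated AhR-KO library 2, 4, 5 or 6 or unstimulated WT library 1, 2, 4 or 6 (0.54 to 0.69). The largest lower difference among the peaks named by rule was 17.1 kb downstream of the Il12b start (chr11:44416572-44417828), at 3.73, 4.48 and 4.88 CPM in AhR-KO against 7.10, 11.5 and 16.4 in WT (-1.42 ± 0.13, edgeR adjusted p = 4.6e-11). The following were chosen after their values were seen. An intergenic peak 8.3 kb downstream of the Il10 start (chr1:131028072-131028300) lay at 0.212, 0.350 and 0.595 CPM in AhR-KO and 0.693, 1.22 and 1.46 in WT, a log2 difference of -1.67 ± 0.25, which was the lowest of the 92. The Lif intronic peak 11.2 kb from the start lay at 0.157, 0.237 and 0.433 CPM in AhR-KO and 0.465, 0.7 and 1.44 in WT (-1.61 ± 0.48, edgeR adjusted p = 0.0084). In all of these the 6 AhR-KO libraries were below the 6 WT libraries. At the Lif peak that separation was narrow and rests on few counts, 36 over the AhR-KO libraries and 93 over the WT ones. The lowest WT library there held 4 counts.

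**Figure D3:**
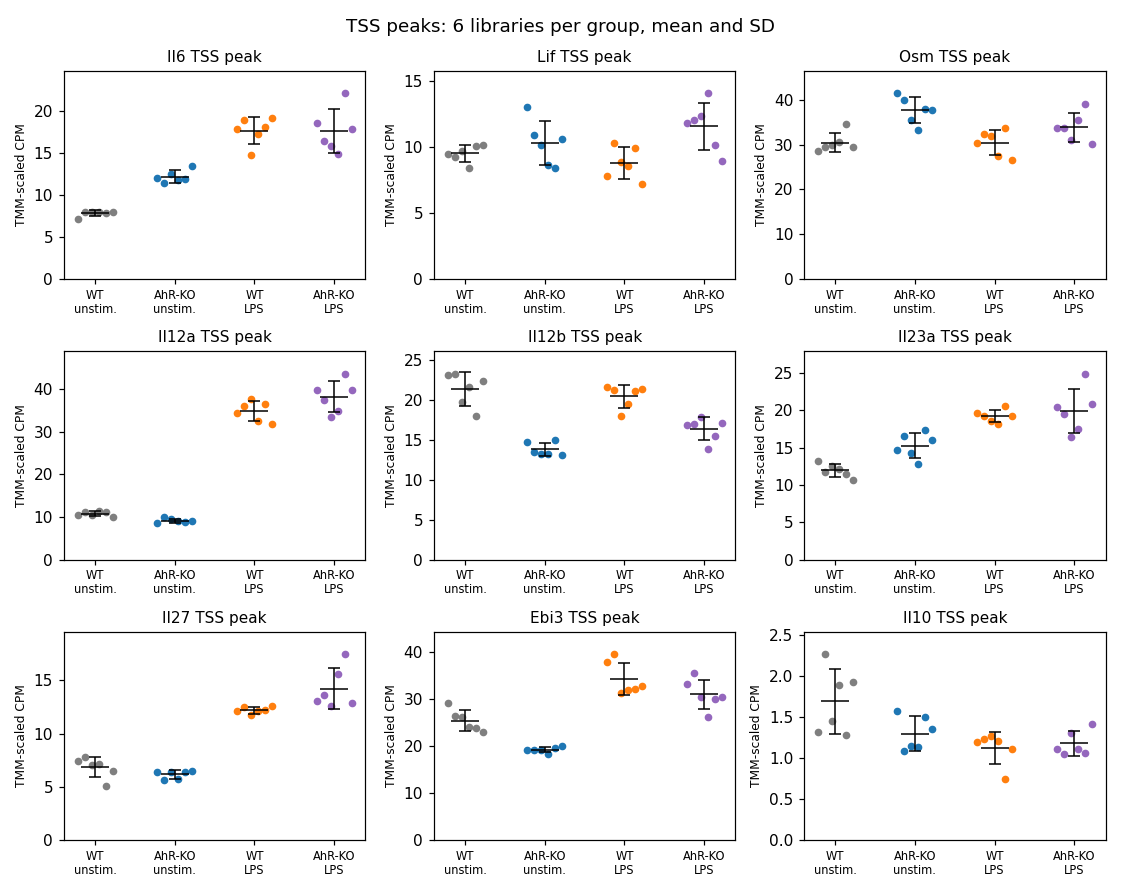
TMM-scaled CPM of the TSS peak of 9 members (Il19 had none) in each library (points), with the mean and SD of 6 libraries per group. With LPS, Il12a in WT goes from 9.90 to 11.3 CPM to 31.8 to 37.7, Il12b and Osm in WT overlap their unstimulated ranges, and unstimulated AhR-KO is above WT at Il6 and below it at Il12b.

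The third question was whether the genotypes differed after LPS. With LPS, 10 of the 92 peaks were lower in AhR-KO, which is 10.9% against 13.1% of all tested peaks, and 9 were higher, which is 9.78% against 13.4%. Both shares were under those of all peaks, and these libraries also enter the LPS comparisons above. The 9 TSS peaks were under the fold minimum, with log2 differences from -0.32 at Il12b to 0.40 at Lif. At an adjusted p of at most 0.05 without the fold minimum, edgeR counted 19 lower, which is 20.7% against 21.3% of all tested peaks, and 22 higher, which is 23.9% against 23.3%. The called differences lay in distal peaks, and at Il6 they ran in both directions within one locus.

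The intergenic Il6 peak 13.5 kb upstream (chr5:29999325-29999844), chosen after its values were seen, lay at 0.861, 1.98 and 3 CPM in WT with LPS and 0.395, 0.463 and 0.858 in AhR-KO. The groups did not overlap (log2 difference -1.95 ± 0.27, edgeR adjusted p = 2.7e-07), although the lowest WT and highest AhR-KO libraries nearly met. MACS2 called a peak here in 5 WT LPS libraries and in 0 libraries of the other groups. It thus entered the consensus only through the group where it was high. The peak 9.2 kb downstream lay at 10.5, 12.6 and 15.6 CPM in WT and 21.2, 27.1 and 33.8 in AhR-KO, and here AhR-KO was higher (1.10 ± 0.10, edgeR adjusted p = 2.4e-10). Also higher at Il6 were the exonic peak 5.7 kb from the start, by 0.75 ± 0.13, and the peak 5.6 kb upstream, by 0.70 ± 0.16, while the peak 4.4 kb upstream was lower (-1.32 ± 0.22). The last 2 were chosen after their values were seen. MACS2 called the peak 4.4 kb upstream in 3 WT LPS libraries and in 0 libraries of the other groups, so it too entered through the higher group. The Il6 start was no DAR, at a median of 18 CPM in WT and 17.2 in AhR-KO.

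At the IL-12 chains, 3 Il12a peaks were lower in AhR-KO, 1 was lower and 1 higher at each of Il12b and Il23a, and 2 were higher at Ebi3. The higher Il23a peak, 5.6 kb from the start, was no DAR without AhR-KO LPS library 5 (0.47). The peak 6.8 kb upstream of Il12a lay at 2.41, 3.17 and 4.66 CPM in WT and 1.18, 1.62 and 1.99 in AhR-KO (-1.08 ± 0.15, edgeR adjusted p = 4.2e-07), with no overlap. A peak 17.7 kb upstream of Il12b (chr11:44382054-44382647), chosen after its values were seen, lay at 7.26, 16.2 and 21.6 CPM in WT and 3.22, 5.45 and 9.62 in AhR-KO, where the groups overlapped (-1.45 ± 0.24, edgeR adjusted p = 3.9e-05). In the Stat2 intron beside Il23a AhR-KO was lower too (-0.84 ± 0.21). In the opposite direction, the Yju2 intron beside Ebi3 lay at 3.72, 4.87 and 6.59 CPM in WT and 7.86, 8.67 and 10.1 in AhR-KO (0.83 ± 0.13, edgeR adjusted p = 1.5e-06), with no overlap. The Il27 peaks were under the fold minimum, at -0.20 to 0.57.
At Il10, the upstream peaks that opened most with LPS were no DARs between the genotypes, with -0.17 ± 0.16 at 18.8 kb and 0.22 ± 0.14 at 17.1 kb, and the groups overlapped. Of the 17 Il10 peaks, 1 was lower and 1 higher in AhR-KO with LPS. Each is 5.88%, against 13.1% and 13.4% of all tested peaks, and the highest log2 difference at Il10 was 1.10. The next 3 were chosen after their values were seen. An intronic Il10 peak 3.0 kb from the start was lower in AhR-KO in both states (-1.20 ± 0.31 without and -0.95 ± 0.20 with LPS). The Lif intronic peak was as well (-1.61 ± 0.48 and -1.41 ± 0.33), with 0.326, 0.573 and 1.63 CPM in AhR-KO against 0.775, 1.93 and 3.30 in WT with LPS, where the groups overlapped. The peak 10.7 kb from the Osm start lay at 0.430, 0.648 and 0.911 CPM in AhR-KO and 0.861, 2.12 and 3.42 in WT (-1.72 ± 0.26), with overlap at the lowest WT library. In all, 4 peaks were lower in AhR-KO in both states, which is 4.35% against 6.95% of all tested peaks: 2 at Il12a, 1 at Il10 and 1 at Lif. One of the Il12a peaks, 5.6 kb upstream, lost its unstimulated call without AhR-KO unstimulated library 1, 3, 5 or 6 or WT unstimulated library 1, 2, 5 or 6 (-1.08 to -0.76). MACS2 called this Il12a peak in 3 WT LPS libraries and in 0 libraries of the other groups. In the other direction, 1 peak was higher in AhR-KO in both states, and the share over all tested peaks was not counted. It lay 4.7 kb upstream of Lif and was chosen after its values were seen (0.69 without and 0.79 with LPS). With LPS its groups overlapped, and its unstimulated call was lost without single libraries, as given above.

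**Figure D4:**
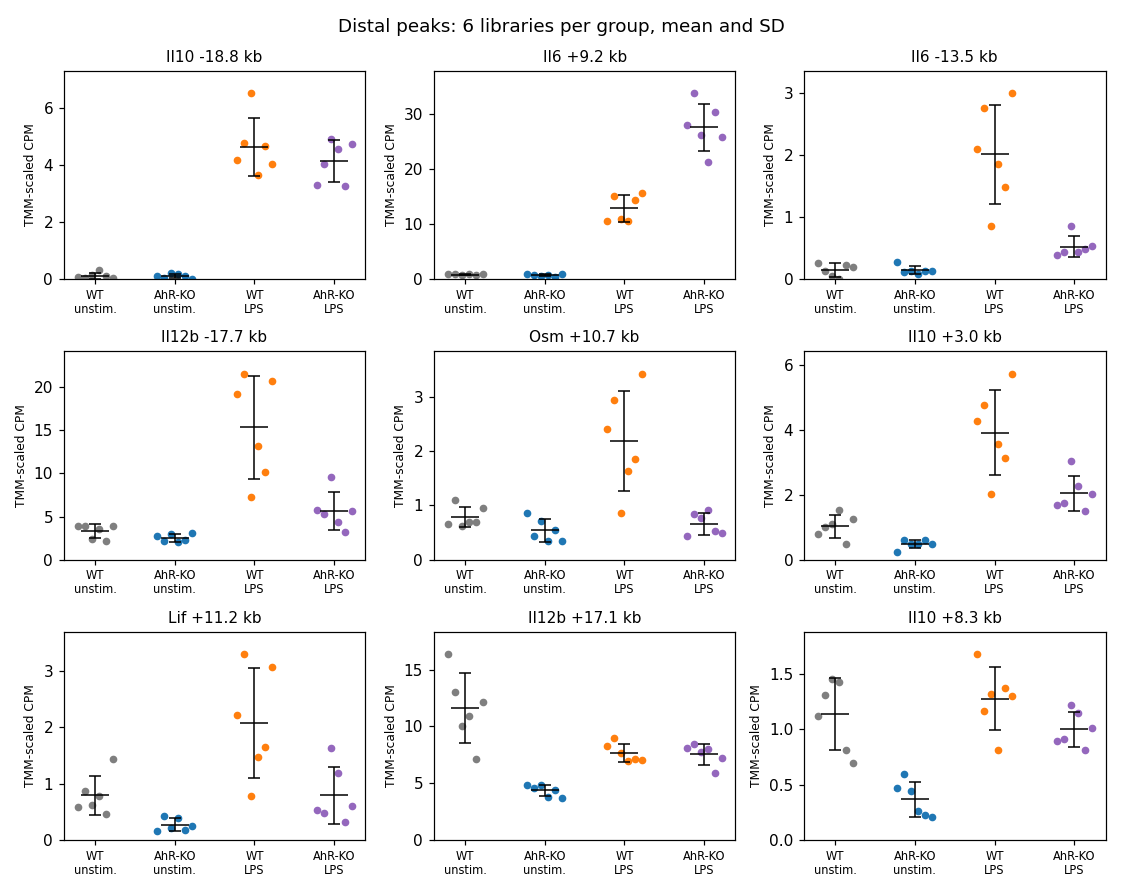
TMM-scaled CPM of 9 distal peaks in each library (points), with the mean and SD of 6 libraries per group. The Il10 peak at -18.8 kb rises by 5.15 log2 units in both genotypes, the Il6 peak at +9.2 kb is higher in AhR-KO with LPS (median 27.1 against 12.6), and the Il6 peak at -13.5 kb, the Il12b peak at -17.7 kb and the Osm peak at +10.7 kb are lower, with wide spread among the WT LPS libraries.

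The last comparison asked whether the LPS response itself differed between the genotypes, tested as the interaction, the log2 LPS change in AhR-KO minus that in WT. The interaction was lower at 8 of the 92 peaks, which is 8.70% against 4.58% of all tested peaks, and higher at 9, which is 9.78% against 5.83%. At the Il6 start the response was smaller in AhR-KO (-0.64 ± 0.12, edgeR adjusted p = 0.00024), with the 4 groups' medians at 7.98 and 18 CPM in WT and 12 and 17.2 in AhR-KO. At the Il6 peak 9.2 kb downstream it was larger (1.28 ± 0.27, edgeR adjusted p = 0.0014). At the Il6 peak 19.2 kb upstream it was smaller (-0.80 ± 0.16), and the peak rose by 0.89 ± 0.12 in WT and changed by 0.09 ± 0.11 in AhR-KO. Peaks given to the same gene thus differed in the direction of the interaction.
The peak 6.5 kb upstream of Lif fell further in AhR-KO (-0.98 ± 0.14, edgeR adjusted p = 7.6e-06). The strongest interaction by p was at the Il12b peak 17.1 kb downstream (1.41 ± 0.17, edgeR adjusted p = 1.1e-06), where LPS lowered the level in WT and raised it in AhR-KO, so that both genotypes ended near one level, at medians of 7.37 and 7.86 CPM. Its fall in WT, by 0.61 ± 0.12, was no DAR without unstimulated WT library 1 (-0.50) or 2 (-0.58). A peak 16.3 kb from the Ebi3 start also went down in WT (-0.60 ± 0.21) and up in AhR-KO (0.67 ± 0.20), with an interaction of 1.27 ± 0.29. The WT call there was lost without WT LPS library 1 (-0.54), 2 (-0.55) or 5 (-0.56) or unstimulated WT library 4 (-0.52), and the AhR-KO call without unstimulated AhR-KO library 3 (0.55). At the Il10 peak 8.3 kb downstream, LPS changed the level by 0.13 ± 0.20 in WT and raised it by 1.44 ± 0.25 in AhR-KO, an interaction of 1.32 ± 0.32.

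**Figure D5:**
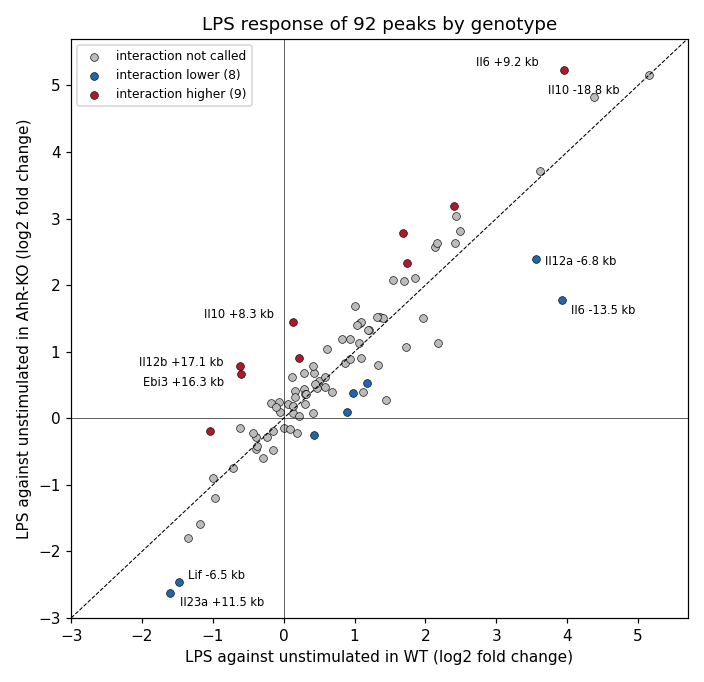
Log2 LPS change in WT (horizontal) against that in AhR-KO (vertical) for the 92 peaks, with the dashed line marking equal change. Blue and red points are the 8 lower and 9 higher interactions, and the Il10 peak at -18.8 kb sits on the line at 5.15 on both axes.

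Of the genes around this pathway, the receptors, kinases, STAT factors, SOCS inhibitors and further ligands, 21 of 27 had a peak within 1 kb of the start. Among these 21 TSS peaks LPS raised 5 in WT, which is 23.8% against 25.4% of all tested peaks, and 3 in AhR-KO, which is 14.3% against 27.3%. It lowered 1 in each genotype, which is 4.76% against 21.6% and 21.5%. AhR-KO was lower at 1 without LPS, which is 4.76% against 12.6%, and at 2 with LPS, which is 9.52% against 13.1%. These shares were all under those of all peaks, distal peaks included. The receptor peak that rose was that of Il23r, the specific chain of the IL-23 receptor, by 2.95 in WT and 2.43 in AhR-KO, and Il10rb, a chain of the IL-10 receptor, rose by 0.80 in AhR-KO. Of the inhibitors Socs1 rose by 0.61 in WT, and Socs3 changed by 0.20 there. The peaks of the kinases Jak1, Jak2 and Tyk2 and of the factor Stat3 stayed under the fold minimum, from an interaction of -0.37 at Jak2 to a difference of 0.37 between unstimulated genotypes at Stat3. Among ligands Il11 fell by 1.85 and 1.98, Clcf1 rose by 0.72 and 0.70, and Ctf1 rose by 0.59 in WT. Il22, an IL-10 family cytokine and a gene known to depend on AhR in lymphocytes, was lower in AhR-KO at its TSS peak. The log2 differences were -2.63 ± 0.57 without and -3.90 ± 0.41 with LPS. Without LPS it lay at 0.654, 1.03 and 1.49 CPM in WT and 0.108, 0.173 and 0.197 in AhR-KO. With LPS it spread widely in WT, at 0.919, 4.01 and 7.17 CPM, and lay at 0.108, 0.277 and 0.396 in AhR-KO. All AhR-KO levels were under 1 CPM, where counts limit the precision.

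The letters of several factors' motifs were counted in a 300-base window at the centre of each peak. NF-kB letters were in 31 of the 92 windows, which is 33.7% against 22.8% of 184060 windows over all consensus peaks, and AP-1 letters in 24, which is 26.1% against 17.9%. The AhR core was in 16, which is 17.4% against 16%, C/EBP letters in 16 (17.4% against 15.7%), STAT letters in 13 (14.1% against 11.1%), IRF letters in 12 (13% against 10.9%) and PU.1 letters in 4 (4.35% against 7.34%). Of the 18 peaks that were lower in AhR-KO in either state, 3 held the AhR core, 8 AP-1, 5 STAT, 4 NF-kB and 4 IRF letters. PU.1 letters were in 1 and C/EBP letters in 0. The shares over all windows are those given above, and no motif was tested in these 18 peaks. In the promoter windows of RefSeq on GRCm38, 250 bases before to 50 after the start, 6 of the 10 members matched. NF-kB letters were in those of Ebi3, Il12a, Il19 and Il6, against 22.4% of 32851 promoters. The AhR core was in those of Il12a and Lif (against 32.4%) and AP-1 letters in those of Il6 and Lif (7.81%). C/EBP letters were in that of Il6 (10.8%), IRF (8.56%) and STAT (8.3%) letters in that of Il19, and PU.1 letters in none (3.2%). Members are counted by gene and the shares by window, and Il12a had more than 1 window.

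Across the 24 libraries, the start peaks whose log2 CPM followed a member's most closely, out of 11599, were those of Slamf8 for Il6 (Pearson r = 0.97), Il1rn for Il12a (0.99), Slamf1 for Il12b (0.95), Mvp for Il23a (0.95), Ifit3 for Il27 (0.97), Cxcl2 for Ebi3 (0.97), Por for Il10 (0.73), Arhgef10 for Lif (0.76) and the shared start of Mindy1 and Prune1 for Osm (0.90). The 24 libraries fall into 4 groups and share their sequencing and scaling, so these values mostly compare group levels and are given as a description.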

How the data were processed

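ATAC-seq was measured in 24 libraries. The authors deposited raw counts per consensus peak from featureCounts (mm10, nf-core atacseq pipeline, each library counted on its own), with the peak length. They also deposited MACS2 broad peaks of each library with a score, a fold enrichment ratio and -log10 p and q values, of which only positions were used here. bcl2fastq 2.20.0 is named in the submitters' processing notes. Libraries were grouped by the labels' genotype and treatment.

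Peaks were assigned with GENCODE vM21. Peaks with low counts were removed (filterByExpr), and the others tested with edgeR 4.0.16 (R 4.3.3) by quasi-likelihood, TMM and 1 model over the 4 groups, with Benjamini-Hochberg adjustment over 174193 peaks. Counts per library limit the precision, chiefly at peaks under 1 CPM. Named peaks were each member's TSS peak (over the start, otherwise within 1000 bases), its distal peak of smallest p, a second one for members with over 5 distal peaks, and the 3 interactions of smallest p in each direction. Others are said to be chosen after their values were seen. The members and lists were chosen with earlier results of these data known. Scripts were tested on simulated data. Alternatives were RLE size factors, no count filter, no fold minimum, DESeq2 1.42.0, a replicate block, each library left out, a 5 kb window, and only peaks nearest to the member. Sequences came from GRCm38. RefSeq promoters matched 6 of 10 members. A gene of the pathway list is not reported here.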

Additional observations from a re-analysis of the deposited data

Results flagged for a closer look

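Of 168 groups of 6 libraries examined at the 42 named peaks, 15 held a library set apart by Dixon's 95% criterion, where chance gives about 1 in 20. At Il6 these were unstimulated AhR-KO library 1 at -13.5 kb (0.275 CPM) and AhR-KO LPS library 3 there (0.858), unstimulated AhR-KO library 3 at -5.6 kb (0.659) and AhR-KO LPS library 5 there (3.30), unstimulated WT library 1 at the TSS peak (7.13), and unstimulated WT library 3 at +9.2 kb (0.662). At Il12a it was unstimulated WT library 4 at +9.2 kb (1.10), and at Il12b unstimulated WT library 4 (1.98) and AhR-KO LPS library 2 (1.64), both at -4.4 kb. At Ebi3 it was unstimulated AhR-KO library 2 at +16.3 kb (2.22). At Il10 they were unstimulated WT library 4 at -18.8 kb (0.322), unstimulated WT library 5 at -17.1 kb (0.582), WT LPS library 5 at the TSS peak (0.746) and unstimulated AhR-KO library 1 at +3.0 kb (0.236). At Osm it was unstimulated WT library 5 at the TSS peak (34.5).

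The LPS response differed between the genotypes, by the edgeR interaction, at 17 peaks. At Il6 the log2 interaction was -0.80 at -19.2 kb, -2.16 at -13.5 kb, -0.64 at the TSS peak and 1.28 at +9.2 kb. The value at -13.5 kb was no longer called without unstimulated AhR-KO library 1 (-1.85). At Il12a it was -1.16 at -6.8 kb, which was not called without unstimulated AhR-KO library 6 (-0.99), and 0.69 at +26.8 kb. At Il12b it was 0.85 at -4.4 kb and 1.41 at +17.1 kb, at Il23a -1.03 at +11.5 kb, at Il10 1.32 at +8.3 kb and at Lif -0.98 at -6.5 kb. At Il27 it was -0.60 at +20 kb, 0.60 at -4.3 kb and -0.68 at -12.1 kb, of which the first was lost without AhR-KO LPS library 2, WT LPS library 2 or 6 or unstimulated WT library 3 or 5 (-0.57 to -0.51). The second was lost without AhR-KO LPS library 3 or 5, unstimulated AhR-KO library 2, 3, 4 or 6, WT LPS library 1, 4 or 6 or unstimulated WT library 1, 3 or 5 (0.49 to 0.61). At Ebi3 it was 0.79 at +8.8 kb, 1.11 at +12.6 kb and 1.27 at +16.3 kb, of which the first was lost without unstimulated AhR-KO library 3 (0.70) or unstimulated WT library 1 (0.65) or 3 (0.71) and the second without unstimulated AhR-KO library 1, 3, 4 or 6 or unstimulated WT library 1 or 3 (0.94 to 1.06).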

How the results depend on the processing

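Counts of called peaks moved with the 5 kb window, with the fold minimum and, before stimulation, with the scaling. Peaks higher in unstimulated AhR-KO numbered 4, but 9 with RLE size factors and 8 with DESeq2. Without the fold minimum, 24 were lower and 18 higher in unstimulated AhR-KO, 19 and 22 in AhR-KO with LPS, 17 lower with LPS in WT, 16 lower with LPS in AhR-KO, and 15 interactions higher. With the 5 kb window, which leaves fewer peaks, 2 were higher in unstimulated AhR-KO, 3 lower and 5 higher in AhR-KO with LPS, 6 lower and 18 higher with LPS in WT, for AhR-KO given LPS 4 lower and 20 higher, and 1 interaction lower. Restricting to the 70 peaks whose nearest gene body was the member gave 12 lower in unstimulated AhR-KO, which is 17.1% against 12.6% of all tested peaks. It gave 3 higher there, which is 4.29% against 9.95%. With LPS 39 were higher in each genotype, which is 55.7% against 25.4% in WT and 27.3% in AhR-KO. Interactions numbered 6 in each direction, which is 8.57% against 4.58% lower and 5.83% higher. Leaving out 1 library gave 10 to 14 lower and 2 to 6 higher in unstimulated AhR-KO (2 without unstimulated AhR-KO library 2), 10 to 11 and 8 to 12 in AhR-KO with LPS, 9 to 11 and 42 to 45 with LPS in WT, 7 to 9 and 45 to 47 with LPS in AhR-KO, and 7 to 11 lower and 6 to 9 higher interactions.

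The replicate numbers share no stated animal or day. Log2 CPM was taken as the deviation from the group mean of each peak, and these deviations were correlated between same-numbered libraries. The correlation was 0.037 to 0.29 between WT unstimulated and WT LPS, over 0.1 in 5 of 6 pairs. Of these unstimulated WT libraries, 4 correlated best with their own number. Between AhR-KO unstimulated and AhR-KO LPS it was 0.004 to 0.171, over 0.1 in 2 pairs, and 3 correlated best with their own number. It was under 0.1 in all pairs between unstimulated WT and unstimulated AhR-KO. With the replicate block 13 peaks were lower and 3 higher in unstimulated AhR-KO, and 43 rose with LPS in WT.

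Values near 0 that were not called changed sign. These were the Il6 TSS peak between genotypes with LPS (0.0111 with RLE, 0.0113 with DESeq2, -0.0771 to 0.0419 over left-out libraries), the Il10 -18.8 kb interaction (-0.0425 with RLE, -0.0019 with no filter, -0.0176 with the block, -0.0371 with DESeq2, -0.6466 to 0.3059 over left-out libraries), Osm -6.4 kb between unstimulated genotypes (0.0206, 0.0203, and -0.1104 to 0.0013) and the Osm TSS peak with LPS in WT (-0.0031 with the block, -0.0257 to 0.0416). Over left-out libraries alone, the unstimulated genotype difference ran from -0.0955 to 0.4761 at Il6 -13.5 kb, -0.0886 to 0.1797 at Il12a -6.8 kb, -0.2257 to 0.0422 at Il12a 9.2 kb, -0.0409 to 0.1861 at Ebi3 8.8 kb, -0.4753 to 0.4768 at Il10 -18.8 kb and -0.0589 to 0.075 at Il19 -12.6 kb. With LPS it ran from -0.0514 to 0.0449 at Il12b 17.1 kb, -0.0181 to 0.1038 at the Il23a TSS peak, -0.1005 to 0.0103 at Il27 -4.3 kb and -0.0345 to 0.0855 at the Il10 TSS peak. The interaction ran from -0.0537 to 0.2643 at Il6 5.7 kb, -0.0617 to 0.2528 at Lif -4.7 kb and -0.1242 to 0.3827 at Lif 11.2 kb. Depth limits peaks with few counts, such as Il10 -18.8 kb without LPS.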

Other observations

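At the 10 cytokine peaks lower in AhR-KO than in WT with LPS, WT LPS library 3 was the lowest of the 6 WT libraries at 9 peaks and library 6 at 1, and the highest was library 6 at 4, library 2 at 3, library 4 at 2 and library 5 at 1. Among the AhR-KO LPS libraries, library 5 was the lowest at 5 of the 10 peaks and library 3 the highest at 5. The source of these ranks was not tested.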
